A study of Mus musculus with 4 samples.

Results

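Mitochondrial ribosomal protein genes encode the protein part of the ribosome that works inside mitochondria. The genes lie in the nucleus, the proteins are made in the cytosol and imported, and the finished ribosome translates the few messages of mitochondrial DNA, all of which encode subunits of the respiratory chain and of ATP synthase. In T cells, mitochondrial translation is known to be needed for full respiration and for effector function. Symbols beginning with Mrpl mark proteins named for the large subunit and symbols beginning with Mrps those named for the small subunit. The genes described here were chosen by that naming: the symbol had to begin with Mrpl or Mrps and a number, the row had to be annotated as protein-coding, and the mean over the 4 libraries had to reach 1 FPKM, a level scaled to exon length and to the total of tags. All 78 genes that met the name and the annotation also met the level, out of 24537 genes in the table and 9810 genes that reached 1 FPKM. The lowest of them, Mrpl23, had a mean of 1.52 FPKM, and no gene lay below the limit.

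The cells were CD8+ T cells taken from B16-GP33 tumours in mice on day 21 after implantation, with 2 libraries labelled ACSS2NLS and 2 control libraries labelled EV. B16 cells are a melanoma line of the mouse, and GP33 names a viral peptide seen by CD8+ T cells. ACSS2 turns acetate into acetyl-CoA, and NLS usually abbreviates nuclear localisation signal. The labels do not say what EV stands for, how the gene was delivered, whether mice were pooled or whether replicates came from separate mice. There was no group with added ACSS2 that lacked the signal, so the amount of the enzyme and its place in the cell cannot be told apart. The comparison of the groups asks how the state of exhausted CD8+ T cells differed when the cells carried ACSS2NLS.

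Total tags per library were between 46000000 and 49000000, and a single mitochondrial ribosomal gene was covered by 34 to 3632 tags, with medians of 1175 and 1049 tags in the ACSS2NLS libraries and 956 and 1006 tags in the EV libraries. Acss2 stood at 80.7 and 86.3 FPKM in the ACSS2NLS libraries, against 3.66 and 3.92 FPKM in the EV libraries, clear of each other as the labels have it. The 8 CD8 T cell markers were all present and summed to 1834 and 1411 FPKM in the ACSS2NLS libraries, against 1901 and 1575 FPKM in the EV libraries. Markers of melanoma cells and of macrophages were present too, and their sums differed widely between replicates of the same group. The 9 melanoma markers summed to 11.2 and 139 FPKM in the ACSS2NLS libraries, against 5.48 and 38.6 FPKM in the EV libraries. The 12 macrophage and monocyte markers summed to 160 and 637 FPKM in the ACSS2NLS libraries, against 65.5 and 364 FPKM in the EV libraries. In bulk libraries, fewer cells of a type and less RNA per cell cannot be told apart.

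The levels of the 78 genes spanned 1.52 to 109 FPKM, with a median of 19.4 FPKM, and 57 of them averaged at least 10 FPKM. FPKM corrects for exon length, so these levels can be set beside each other only as far as the transcript kept for each gene gives the right length. Mrpl33, the counterpart of bacterial L33, was highest, with 132 and 89.8 FPKM in the ACSS2NLS libraries, against 113 and 102 FPKM in the EV libraries. Next came Mrpl18, a protein of the central protuberance, at a mean of 65.9 FPKM, the small subunit gene Mrps21 at 59.3 FPKM, Mrpl54 at 57.3 FPKM and Mrpl20 at 53.8 FPKM. All 4 libraries of Mrpl33 lay above every library of the other 4, whose ranges overlapped, so their order is within the spread. At the low end stood Mrpl47 at 5.08 FPKM, Mrpl17 at 4.77 FPKM, Mrps36 at 4.28 FPKM, Mrps25 at 3.68 FPKM and Mrpl23 at 1.52 FPKM. Of these, Mrpl17 had 1343 to 1762 tags over 6707 bases of exon, and Mrps25 had 917 to 1193 tags over 6059 bases. Their low places thus depend on the long transcripts kept. The mature ribosome holds its proteins mostly in single copies, yet the messages differed 71.9-fold from the lowest to the highest gene. Without Mrpl23, which rests on few tags and has a near-identical pseudogene, the span was 29.7-fold.

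**Figure D1:**
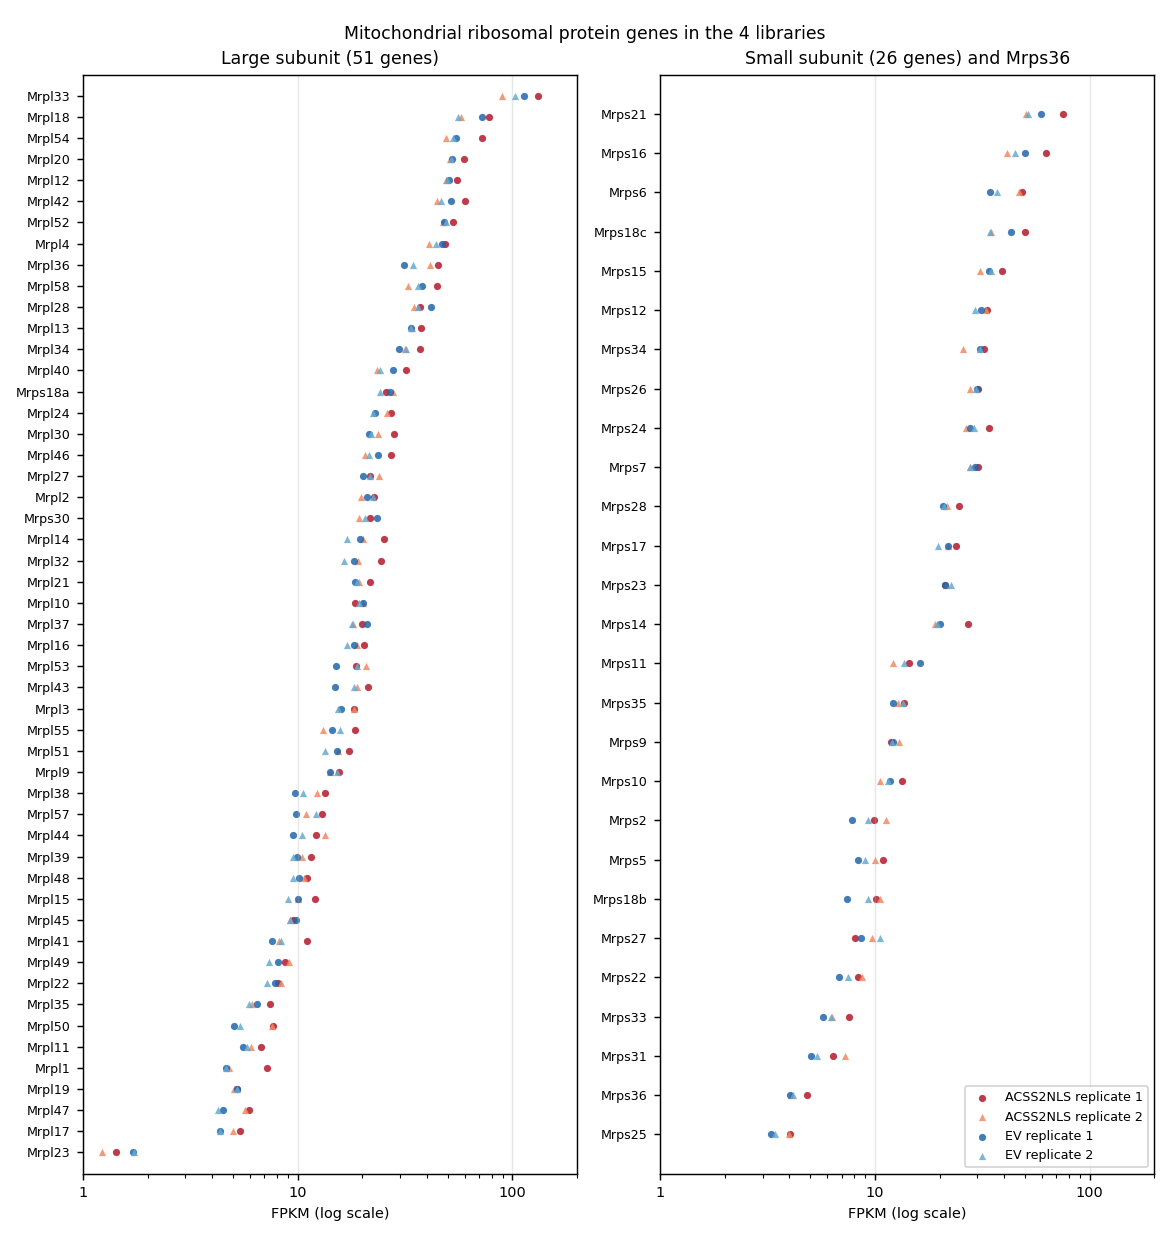
FPKM of each of the 78 genes in the 4 libraries on a log axis, sorted by the mean of each gene, with the large subunit genes in the first panel and the small subunit genes with Mrps36 in the second. Levels run from Mrpl23, at a mean of 1.52 FPKM, to Mrpl33, at 109 FPKM, and ACSS2NLS replicate 1 is the highest library for 57 of the genes, beside 24.3% of all genes tested.

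Mitochondrial ribosomal genes were on balance slightly higher in ACSS2NLS cells, but no single gene changed beyond the test's threshold. Among the 78 genes, the ACSS2NLS mean was higher for 64 and lower for 14, beside 53.2% of all genes tested with a higher mean. The median difference was 0.12 on the log2(FPKM + 1) scale, beside 0.015 over all genes tested, and single genes ran from -0.23 to 0.48. By limma-trend with Benjamini-Hochberg adjustment over all genes, 0 of the 78 passed upward and 0 downward at 0.05, beside 0.0204% and 0% of all genes. At an unadjusted p under 0.05, 6 were higher and 0 lower, beside 3.1% and 2.87% of all genes. For 34 genes (43.6%) both ACSS2NLS libraries were above both EV libraries and for 1 gene both were below, beside 19.3% and 18.1% of all genes. After each library was centred on the median of the genes tested, those counts were 19 and 2, beside 15.3% and 22.2% of all genes.

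Over the 78 genes as a set, the group difference rested largely on ACSS2NLS replicate 1. That library exceeded the EV mean for 69 of the 78 genes, by a median of 0.21 on the log2 scale, while ACSS2NLS replicate 2 exceeded it for 44, by a median of 0.029. Over all genes tested, 46.7% were above the EV mean in replicate 1 and 56.1% in replicate 2, with medians of -0.021 and 0.037, so the 78 genes stood above the background in replicate 1 and at it in replicate 2. Summed over the 78 genes, the levels were 2019 and 1698 FPKM in the ACSS2NLS libraries, against 1751 and 1686 FPKM in the EV libraries. In 41 genes both ACSS2NLS libraries were above the EV mean, which is 52.6% of them and 31.2% of all genes tested. In 28 genes replicate 1 was above and replicate 2 at or below the EV mean, in 3 genes the reverse held, and in 6 genes both were at or below it. The 26 genes with the lowest levels had medians of 0.23 in replicate 1 and 0.11 in replicate 2 against the EV mean. The middle 26 had 0.20 and 0.042, and the highest 26 had 0.25 and -0.11. In replicate 2, 21, 16 and 7 of these genes were above the EV mean, in that order. Both ACSS2NLS libraries were above both EV libraries for 65.4%, 46.2% and 19.2%, beside 19.3% of all genes tested.

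**Figure D2:**
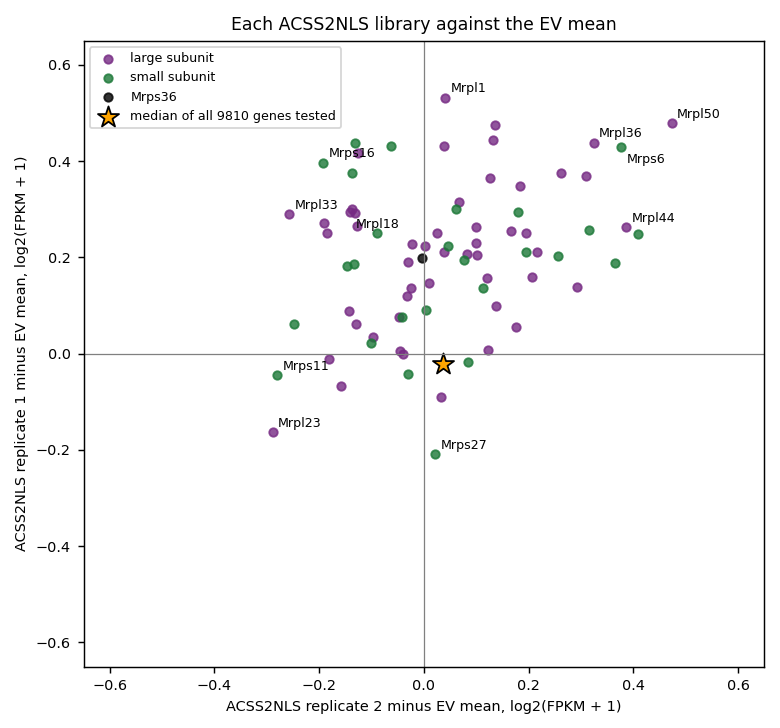
Difference of each ACSS2NLS library from the EV mean for the 78 genes, on the log2(FPKM + 1) scale, with replicate 1 on the vertical and replicate 2 on the horizontal axis; the star is the median of all genes tested. Of the points, 69 lie above the horizontal zero line and 44 lie right of the vertical one. Mrpl50, Mrps6 and Mrpl36 are high on both axes, and Mrpl44 is high on the replicate 2 axis.

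A set of 10 genes, those with the smallest unadjusted p, was higher in both ACSS2NLS libraries. None of them passed over all genes tested (limma-trend, adjusted p = 0.81 for each). Mrpl50 (NM_178603; mm10 chromosome 4, 49512597 to 49521083, minus strand), a large subunit protein with no bacterial counterpart, had the widest gap. It had 7.66 and 7.63 FPKM in the ACSS2NLS libraries, against 5.04 and 5.40 FPKM in the EV libraries. The groups were well apart and the ACSS2NLS replicates nearly equal, with a 1.46-fold ratio of the means and a log2 difference of 0.48 ± 0.13 (SE, n = 2 per group). Mrps6 (NM_080456; chromosome 16, 92058336 to 92112227, plus strand), the counterpart of bacterial S6 in the small subunit, had 48.5 and 46.8 FPKM in the ACSS2NLS libraries, against 34.5 and 37.1 FPKM in the EV libraries, a log2 difference of 0.40 ± 0.11. Its transcript shares 305 exon bases on the same strand with other genes, among them the transporter gene Slc5a3, so its tags are not all its own with certainty; Slc5a3 itself was listed at 0.868 and 0.812 FPKM in ACSS2NLS and at 0.545 and 0.461 FPKM in EV. Mrpl36 (NM_053163; chromosome 13, 73331009 to 73332178, plus strand), the counterpart of bacterial L36, had 44.8 and 41.4 FPKM in the ACSS2NLS libraries, against 31.4 and 34.3 FPKM in the EV libraries, a log2 difference of 0.38 ± 0.12. For Mrps6 and Mrpl36, as for Mrpl50, the lower ACSS2NLS library was clear of the higher EV library by more than either pair of replicates differed.

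Further genes of that set lie near the tunnel through which the new protein leaves the ribosome. Mrpl44, a protein with an RNase III-like fold whose human form is mutated in an inherited cardiomyopathy, had 12.2 and 13.4 FPKM in the ACSS2NLS libraries, against 9.48 and 10.5 FPKM in the EV libraries (log2 difference 0.32 ± 0.13). Mrpl47, the counterpart of bacterial L29 at the tunnel exit, had 5.94 and 5.66 FPKM in ACSS2NLS, against 4.49 and 4.25 FPKM in EV (0.34 ± 0.13). Mrpl24, the counterpart of L24, had 27.2 and 26.1 FPKM in ACSS2NLS, against 22.9 and 22.5 FPKM in EV (0.22 ± 0.11). In these 3 genes the groups did not overlap. Mrpl38, part of the central protuberance, had 13.5 and 12.4 FPKM in ACSS2NLS, against 9.71 and 10.6 FPKM in EV (0.32 ± 0.12). Mrpl3, the counterpart of L3 near the peptidyl transferase centre, had 18.3 and 18.3 FPKM in ACSS2NLS, against 15.8 and 15.5 FPKM in EV (0.21 ± 0.11). The small subunit gene Mrps31, mitochondria specific, had 6.37 and 7.25 FPKM in ACSS2NLS, against 5.04 and 5.38 FPKM in EV (0.33 ± 0.14). In Mrpl32, whose protein is cut by a mitochondrial protease before it is built in, the spread was widest: 24.5 and 19.2 FPKM in ACSS2NLS, against 18.3 and 16.5 FPKM in EV (0.31 ± 0.15). Without ACSS2NLS replicate 1 the difference of Mrpl32 was 0.14, and without ACSS2NLS replicate 2 it was 0.47.

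**Figure D3:**
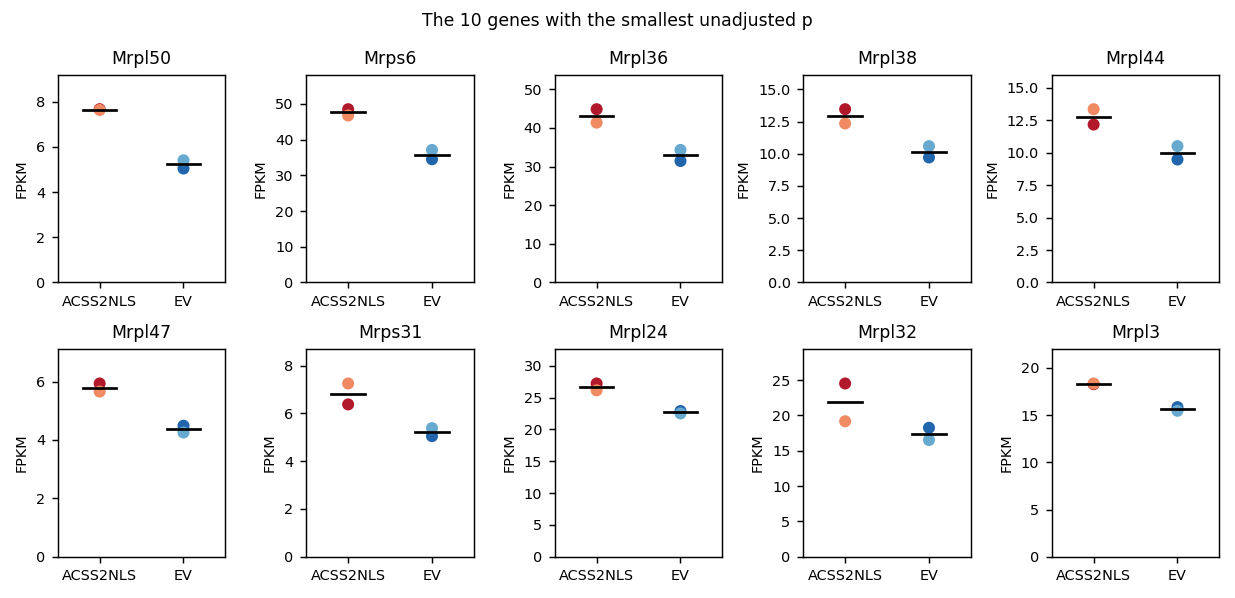
FPKM of the 10 genes with the smallest unadjusted p, with 1 point per library, dark points for replicate 1, light points for replicate 2 and a bar at the group mean. In all 10 panels both ACSS2NLS points lie above both EV points, and the replicates of Mrpl32 differ most.

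Promoter sequences were read from RefSeq (GRCm38.p6, the build of mm10) because genes of the mitochondrial ribosome are known in mammals to be served by a few widely used factors, among them NRF1, ETS family factors such as GABP, and YY1. The window ran from 250 bases before to 50 bases after the transcription start, and 65 of the 78 genes had a window whose start lay within 200 bases of the start in the deposited table. Both strands were searched for the NRF1 letters (GCGC, then any base, then TGCGC), for CCGGAAGT (ETS) and for AANATGGCG (YY1), where N is any base. None of these contains another, though matches may overlap in part, and a match is a description of letters, not a binding site. The NRF1 letters were found in 12 of the 65 windows (18.5%), the ETS letters in 11 (16.9%) and the YY1 letters in 11 (16.9%). In the windows of 7009 protein-coding genes tested they were found in 12.2%, 10.5% and 6.75%, and in all 32851 windows of the table in 4.6%, 3.89% and 2.38%. At least 1 of the 3 was in 31 of the 65 windows (47.7%), beside 26.8% of the genes tested and fewer, 3285 of 32851, in all windows. TATAAA was in 4 of the 65 (6.15%), beside 6.72% of the genes tested. The 31 genes with a match had a median log2 difference of 0.081 and the 34 without 0.14. Of the 10 leading genes, Mrpl50, Mrps6, Mrpl24, Mrpl47 and Mrps31 had none of the 3, and Mrpl38 had no window. Matches upstream of the start are shown for the other 4 of the 10 and for Mrpl12 and Mrpl18, both abundant. Each is given as 30 bases 5′ to 3′ on the strand of the gene, with the match in capitals. The 30 bases of Mrpl18 include the deposited start of its opposite neighbour Tcp1, at 12916329.
Mrpl44 (NRF1, chr1:79775973-79776002, plus strand): agaagcacttGCGCACGCGCagtacactag
Mrpl32 (NRF1, chr13:14613105-14613134, minus strand): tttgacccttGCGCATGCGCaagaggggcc
Mrpl12 (NRF1, chr11:120484546-120484575, plus strand): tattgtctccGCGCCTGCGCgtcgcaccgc
Mrpl3 (ETS, chr9:105053238-105053267, plus strand): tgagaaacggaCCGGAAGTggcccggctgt
Mrpl18 (ETS, chr17:12916312-12916341, minus strand): actgaaaacgCCGGAAGTagggggctgcgg
Mrpl36 (YY1, chr13:73330968-73330997, plus strand): cgtgaccttaCGCCATCTTtcttcctggcg

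The medians of the 2 subunits were close, and their difference was not tested. Of 51 genes whose proteins belong to the large subunit, 42 had a higher mean in ACSS2NLS, with a median log2 difference of 0.12, and 23 had both ACSS2NLS libraries above both EV libraries. Of 26 small subunit genes, 21 had a higher mean, with a median of 0.12, and 11 did not overlap upward. Proteins inherited from bacteria and those added in mitochondria had medians close to each other as well, namely 0.12 for 30 large subunit genes with a bacterial counterpart and 0.14 for 21 without, and 0.12 for 16 and 0.11 for 10 such genes of the small subunit. Among 8 genes of the exit region of the large subunit, the median was 0.19, and 6 did not overlap upward and 1 downward. The 8 genes of the central protuberance had a median of 0.079 and the 5 of the stalk and its base, where elongation factors dock, 0.14. Over all genes tested, 19.3% did not overlap upward and 18.1% downward. No gene of any of these groups passed over all genes tested.

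Proteins with known tasks showed small differences. Mrps12, the counterpart of the bacterial decoding-site protein S12, had 33.3 and 32.8 FPKM in the ACSS2NLS libraries, against 31.2 and 29.3 FPKM in the EV libraries (log2 difference 0.12 ± 0.11). Mrpl12, the stalk protein that has also been reported to bind the mitochondrial RNA polymerase, had 55.1 and 49.2 FPKM in ACSS2NLS, against 50.5 and 49.6 FPKM in EV (0.056 ± 0.12). Its groups overlapped, whereas those of Mrps12 did not. At the base of the stalk, Mrpl10 had 18.5 and 20.2 FPKM in ACSS2NLS, against 20.2 and 19.3 FPKM in EV. Mrpl11 had 6.72 and 6.08 FPKM in ACSS2NLS, against 5.58 and 5.81 FPKM in EV, without overlap. Mrpl58, a release enzyme that frees stalled ribosomes, had 44.4 and 32.6 FPKM in ACSS2NLS, against 38.1 and 36.2 FPKM in EV, so both EV libraries lay between the ACSS2NLS ones. None of the 5 passed the limma-trend test over all genes (adjusted p = 0.85 for Mrps12 and 0.981 for Mrpl58).

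The 3 genes named after bacterial S18 encode proteins in different places: Mrps18c takes the bacterial position, Mrps18b lies elsewhere in the small subunit, and Mrps18a belongs to the large subunit. Mrps18b had 10.1 and 10.6 FPKM in ACSS2NLS, against 7.44 and 9.31 FPKM in EV (log2 difference 0.29 ± 0.15), with no overlap. Without EV replicate 1 its difference was 0.14, and without EV replicate 2 it was 0.43. It shares 638 exon bases with Gm16279 on the other strand. Mrps18c had 50.1 and 34.8 FPKM in ACSS2NLS, against 42.8 and 34.5 FPKM in EV (0.12 ± 0.21), and Mrps18a had 25.7 and 27.9 FPKM in ACSS2NLS, against 27.0 and 24.2 FPKM in EV (0.065 ± 0.12). The groups overlapped for both. Mrps18c shares 174 exon bases with Gm43511 on the same strand. Mrps36 is named as a ribosomal protein but is known as a subunit that tethers the 2-oxoglutarate dehydrogenase complex, and it had 4.85 and 4.08 FPKM in ACSS2NLS, against 4.05 and 4.14 FPKM in EV.

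A lower mean in ACSS2NLS was found for 14 genes, with small differences. Mrpl23 (NM_011288; chromosome 7, 142533117 to 142540742, plus strand) was the one gene lower in each ACSS2NLS library than in either EV library, at 1.43 and 1.22 FPKM, against 1.70 and 1.73 FPKM in EV (log2 difference -0.23 ± 0.16; limma-trend adjusted p = 0.835). It rested on 34 to 49 tags per library, and the pseudogene Mrpl23-ps1 matches 85.9% of its transcript at 100% identity, so tags may be split between the copies. Mrps11, the counterpart of S11, had 14.5 and 12.1 FPKM in ACSS2NLS, against 16.3 and 13.7 FPKM in EV. Mrps11 starts 42 bases from its neighbour Mrpl46, which is read in the opposite direction, and Mrpl46 had 27.3 and 20.6 FPKM in ACSS2NLS, against 23.6 and 21.6 FPKM in EV. By the GENCODE annotation, 173 exon bases of Mrps11 overlap exons of Mrpl46, while the deposited spans of the pair do not overlap. For both genes the FPKM values of the groups overlapped. Mrpl28, the counterpart of L28, had 37.2 and 34.8 FPKM in ACSS2NLS, against 41.7 and 36.4 FPKM in EV. Mrps30, which despite its name lies in the large subunit, had 21.8 and 19.3 FPKM in ACSS2NLS, against 23.4 and 20.7 FPKM in EV. In both, the higher ACSS2NLS library lay inside the EV range. Without EV replicate 1 the log2 difference was -0.017 for Mrpl28 and -0.011 for Mrps30, against -0.11 and -0.096 with all libraries. Mrps34 had 32.2 and 25.8 FPKM in ACSS2NLS, against 30.8 and 30.8 FPKM in EV, with the ACSS2NLS libraries on either side. By the GENCODE annotation, 440 of 899 exon bases of Mrps34 overlap Mapk8ip3 on the other strand. Mrps27, an RNA-binding protein of the small subunit, had 8.11 and 9.68 FPKM in ACSS2NLS, against 8.63 and 10.5 FPKM in EV, again with overlap.

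Head-to-head gene pairs were common among these genes. Another protein-coding gene started within 1000 bases in the opposite direction for 27 of the 78 genes (34.6%), beside 16.4% of 9265 protein-coding genes tested, by the GENCODE annotation of GRCm38. Some partners serve mitochondria as well. Mrps12 is paired with Sars2, the mitochondrial seryl-tRNA synthetase gene, which had 8.89 and 8.06 FPKM in ACSS2NLS, against 8.51 and 9.07 FPKM in EV. Mrpl43, with 21.3 and 18.9 FPKM in ACSS2NLS, against 14.9 and 18.2 FPKM in EV, is paired with Twnk, the gene of the mitochondrial DNA helicase, which had 2.83 and 3.20 FPKM in ACSS2NLS, against 2.33 and 2.67 FPKM in EV. By that annotation Mrpl43 and Twnk share 385 exon bases, while their deposited spans do not overlap: Mrpl43 ends at 45006442 and Twnk starts at 45006558. By the same annotation, exons of 21 of the 78 genes overlap a gene on the other strand and those of 4 a gene on the same strand. A near-identical pseudogene exists for 7 genes. The 48 genes without such exon overlaps or a near-identical pseudogene, whether paired or not, had a median log2 difference of 0.14 and the other 30 had 0.079.

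The widest gaps between the ACSS2NLS replicates were mostly in short genes. The difference of ACSS2NLS replicate 1 minus replicate 2 was above 0.4 on the log2 scale for 12 of the 78 genes, 9 of them with under 1000 bases of exon, while no gene differed by as much between the EV replicates. The widest gaps were in Mrps16, with 62.7 FPKM in replicate 1 and 41.4 FPKM in replicate 2 of ACSS2NLS, beside 50.1 and 44.9 FPKM in EV, and in Mrps21, with 75.4 and 50.5 FPKM in ACSS2NLS, beside 59.6 and 51.6 FPKM in EV. Mrpl33 and Mrps18c, given above, and Mrpl54, with 72.2 and 49.3 FPKM in ACSS2NLS and 54.9 and 52.9 FPKM in EV, had the same form: replicate 1 of ACSS2NLS was the highest library, and replicate 2 was no higher than the EV range. Across the 78 genes the Spearman correlation of the ACSS2NLS replicate difference with exon length was -0.33, and across all genes tested it was -0.42; for the EV replicates the values were -0.17 and -0.048. The correlation with level was larger in size among the 78 genes, at 0.43 for the ACSS2NLS and 0.33 for the EV replicate difference, beside 0.25 and 0.21 over all genes tested. Of the 26 genes with the highest levels, 25 were higher in replicate 1 than in replicate 2 of ACSS2NLS. Genes in 1 library share its depth and preparation and are not independent, so these are descriptions. The 35 genes under 1000 bases had a median group difference of 0.11, beside 0.10 for all 1212 genes that short, and the 43 longer genes had 0.14, beside 0.0062 for all 8598 longer genes. The Spearman correlation of the group difference with level was -0.28 among the 78 genes and -0.18 over all genes tested. What part length or level has in the group difference was not tested.

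**Figure D4:**
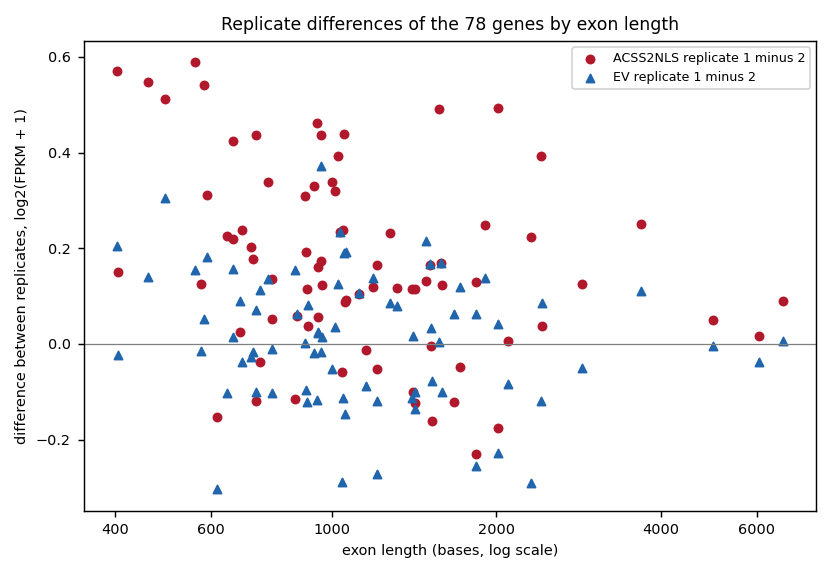
Difference between replicate 1 and replicate 2 for each of the 78 genes, on the log2(FPKM + 1) scale, against exon length in bases on a log axis, with circles for ACSS2NLS and triangles for EV. The differences above 0.4 are all circles, 12 in number, and 9 of them belong to genes under 1000 bases.

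Macrophage and melanoma markers differed between replicates in the same direction in both groups. Macrophage markers summed to 364 FPKM in EV replicate 2 and 65.5 FPKM in EV replicate 1, and the 78 genes differed between these libraries by a median of 0.014. In ACSS2NLS, replicate 1 had the lower macrophage and melanoma sums, 160 and 11.2 FPKM, and the 78 genes were a median of 0.13 higher there than in replicate 2. The sums of the 5 neutrophil markers differed between the groups as well as between replicates. They were 0.406 and 2.84 FPKM in ACSS2NLS, against 6.87 and 52.7 FPKM in EV. The groups were apart for S100a8, S100a9 and Retnlg and overlapped for Csf3r and Cxcr2. The 4 red blood cell markers summed to 16.002 and 4.24 FPKM in ACSS2NLS, against 6.90 and 11.1 FPKM in EV, with replicate 1 the higher in ACSS2NLS and the lower in EV. The part of other cells in the differences of the 78 genes was not tested. Proliferation genes had a lower mean in ACSS2NLS for 17 of 20, beside 4593 of all 9810 genes tested. Their median was -0.16, with 0 past the threshold. Among these 20, 9 did not overlap downward and 0 upward, beside 18.1% and 19.3% of all genes.

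Other genes that build or run mitochondrial translation had small positive medians as well. The 5 mitochondrial ribosomal proteins that carry other names (Dap3, Aurkaip1, Chchd1, Ptcd3 and Gadd45gip1) all had a higher mean in ACSS2NLS, with a median log2 difference of 0.14. Chchd1 had 46.6 and 39.5 FPKM in ACSS2NLS, against 34.6 and 37.4 FPKM in EV, and Ptcd3 had 14.6 and 13.6 FPKM in ACSS2NLS, against 11.6 and 12.3 FPKM in EV. Dap3 had 9.12 and 8.20 FPKM in ACSS2NLS, against 8.19 and 7.35 FPKM in EV. In these 3 and in Gadd45gip1, with 21.1 and 18.1 FPKM in ACSS2NLS, against 17.7 and 17.8 FPKM in EV, the groups did not overlap. For Aurkaip1 they did, at 46.9 and 37.4 FPKM in ACSS2NLS, against 40.7 and 39.3 FPKM in EV. Assembly factors had a higher mean for 18 of 25 (median 0.12), translation factors for 11 of 13 (median 0.15), mitochondrial aminoacyl-tRNA synthetases for 12 of 15 (median 0.15), genes of mitochondrial DNA and RNA maintenance for 18 of 23 (median 0.099) and import translocases for 18 of 23 (median 0.12). Over all genes tested 53.2% had a higher mean, with a median of 0.015. Both ACSS2NLS libraries were above both EV libraries for 40%, 53.8%, 20%, 26.1% and 30.4% of these 5 lists, in that order. For the 5 ribosomal proteins with other names it was 80%, beside 19.3% of all genes tested. In none of these lists did a gene pass in either direction over all genes tested.

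The genes named next are those with the smallest unadjusted p of each list. Taco1, an activator of the translation of a cytochrome oxidase subunit, had 3.17 and 3.05 FPKM in ACSS2NLS, against 1.67 and 1.495 FPKM in EV (log2 difference 0.67 ± 0.15; limma-trend adjusted p = 0.775). Tufm, the mitochondrial elongation factor Tu, had 4.94 and 5.03 FPKM in ACSS2NLS, against 3.45 and 4.14 FPKM in EV (0.32 ± 0.15). Tfb1m, which methylates the small mitochondrial rRNA during assembly, had 2.86 and 3.18 FPKM in ACSS2NLS, against 1.82 and 2.10 FPKM in EV (0.44 ± 0.16). These 3 were at similar levels in both ACSS2NLS replicates and clear of both EV libraries. C1qbp, a matrix protein of ribosome assembly, had a log2 difference of 0.25 ± 0.13, Slirp, which stabilises mitochondrial messages, 0.45 ± 0.16, and the mitochondrial RNA exonuclease gene Pnpt1 0.30 ± 0.12. The import genes Timm9 and Timm8b, small chaperones of the intermembrane space, had 0.68 ± 0.12 and 0.41 ± 0.12. Rars2 and Pars2, synthetases for arginine and proline, had 0.22 ± 0.12 and 0.44 ± 0.20. Among 9 transcription regulators of mitochondrial genes, 6 had a higher mean (median 0.18), with Creb1 at 0.33 ± 0.16 and Esrra at 0.32 ± 0.16. The limma-trend adjusted p of the genes named here by smallest unadjusted p lay between 0.75 and 0.81. For the 5 ribosomal proteins with other names it lay between 0.81 (Chchd1) and 0.944 (Aurkaip1).

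A few genes of these lists had both ACSS2NLS libraries below both EV libraries, and they were picked with their values in view. Nrf1, a transcription factor for nuclear genes of mitochondria, had 12.2 and 12.7 FPKM in ACSS2NLS, against 16.2 and 13.4 FPKM in EV (log2 difference -0.23 ± 0.14). The translation initiation factor gene Mtif2 was at -0.084 ± 0.13 and the release factor gene Mtrf1 at -0.15 ± 0.16. Among assembly factors, the RNA helicase gene Dhx30 was at -0.11 ± 0.12 and Mpv17l2 at -0.10 ± 0.11, and the import receptor gene Tomm20 was at -0.063 ± 0.15. None of these 6 passed the test, with limma-trend adjusted p between 0.822 and 0.947.

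Other gene families stood differently in the 2 ACSS2NLS libraries. The 76 nuclear subunits of oxidative phosphorylation had a median of 0.26 in replicate 1 and -0.039 in replicate 2 against the EV mean. The 86 cytosolic ribosomal protein genes had 0.41 and 0.16, and 65 of them (75.6%) had both ACSS2NLS libraries above both EV libraries, against 34 (43.6%) of the mitochondrial ones and 15 (19.7%) of the respiratory ones. The share over all genes tested was 19.3%, so the respiratory genes stood at the background in that count. By means they did not: 61 of 76 (80.3%) had a higher mean, with a median difference of 0.095. For the 78 mitochondrial ribosomal genes these values were 82.1% and 0.12, and over all genes tested 53.2% and 0.015. Assembly factors (0.11 and 0.13) and translation factors (0.15 and 0.16) stood at nearly the same height in both ACSS2NLS libraries. These families share their libraries, and the differences between them were not tested.

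**Figure D5:**
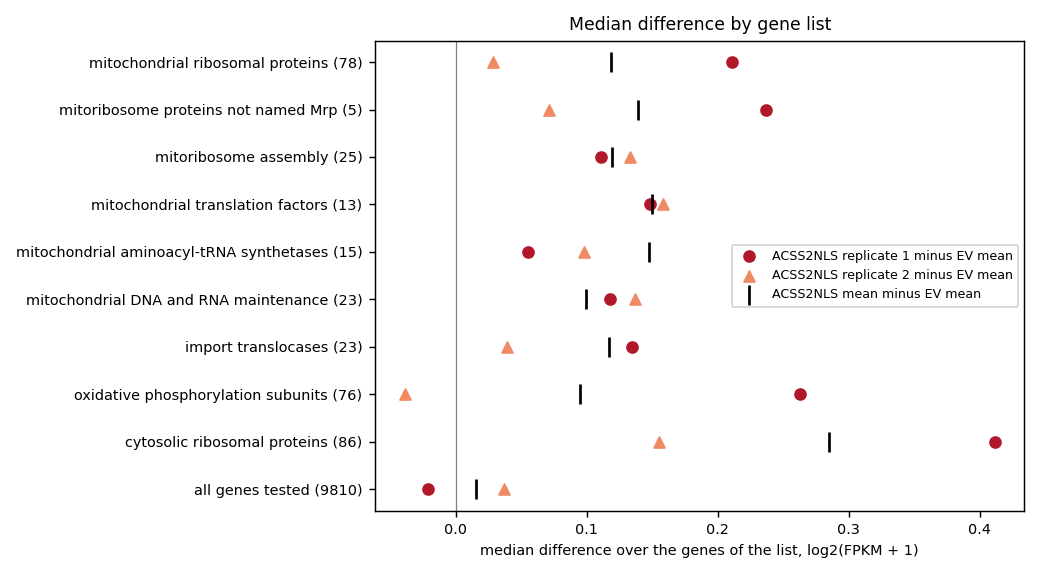
Median difference from the EV mean over the genes of each list, on the log2(FPKM + 1) scale, for ACSS2NLS replicate 1 (circles), ACSS2NLS replicate 2 (triangles) and the ACSS2NLS mean (bars), with the number of genes in brackets. For the mitochondrial ribosomal proteins the circle is at 0.21 and the triangle at 0.029, whereas both symbols nearly coincide for assembly and translation factors.

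With 2 libraries per group, an exact permutation test of a single gene cannot give a p below 0.333, and the p-values of limma-trend measure the spread between these libraries, which may be technical. The standard errors of the 78 differences ran from 0.11 to 0.21, with a median of 0.13, about the size of the median difference itself. Without ACSS2NLS replicate 1 the median difference of the 78 genes was 0.029 and 44 had a higher mean, and without ACSS2NLS replicate 2 it was 0.21 and 69 had a higher mean.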

How the data were processed

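RNA of CD8+ T cells was sequenced in 2 ACSS2NLS and 2 EV libraries. Per the labels' protocols, an RNeasy Plus Micro kit gave the RNA and a SMART-Seq v4 kit for small inputs gave the libraries. The tools STAR 2.5.3a and HOMER and the build mm10 are named in the submitters' processing notes. Per the file headers, the authors counted tags on exons in the sense direction, kept 1 transcript per gene and deposited FPKM. No source used here says whether strand was kept. The columns, named Acss2WT and Acss2OE with replicate numbers, were read as EV and ACSS2NLS; the header names 8 tag directories, and the table holds 4 library columns, all used. Tag numbers were recovered from the FPKM steps (100% of low values whole within 0.1 tag) and served for depth alone. Replicates differed beyond counting noise (chi-square per degree of freedom 60.7 in ACSS2NLS and 40.1 in EV), so each was counted as its own library.

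From the deposited FPKM, log2(FPKM + 1) of the genes that averaged 1 or more was fitted with limma-trend (limma 3.58.1, R 4.3.3), two-sided, with adjusted p under 0.05 as the threshold; a difference is ACSS2NLS minus EV and understates the change of low genes. The fit was tested on simulated data. Gene lists are described by counts and medians, without set tests. The genes and lists were chosen with earlier results of these data known. Genes were named by a rule: the 10 smallest unadjusted p, the 5 highest and 5 lowest levels, 14 genes by role, the 3 nearest the 1 FPKM limit, the 5 widest replicate gaps, and the 2 smallest unadjusted p of each related list; Mrps11, Mrpl46, Mrpl43, Sars2, Twnk and Slc5a3 were added after their values were seen. Near-identical copies were transcripts of other genes matching at least 50% of a transcript at 95% identity or more (GENCODE M21). 11 alternatives were run.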

Additional observations from a re-analysis of the deposited data

How the results depend on the processing

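No mitochondrial ribosomal gene passed the threshold under any of the 11 alternatives, and of 348 values of the 32 named genes 327 kept their direction. Over all genes, 38 passed upward and 4 downward with no filter on low values, and 229 and 172 with the replicate block; the cause was not tested. Only 1 residual degree of freedom is left with the block, the labels do not say what the replicate numbers share, and the replicate difference in ACSS2NLS correlated with that in EV at 0.583 over all genes; the smallest adjusted p of a mitochondrial ribosomal gene with the block was 0.0689, and it changed no call of theirs. Leaving out 1 library gave 0 to 9 genes downward. Without ACSS2NLS replicate 1 or 2 a lone library stands for its group and is assumed to vary like the EV libraries, and likewise for EV.

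The median difference of the 78 genes ran from 0.029 to 0.21 when 1 library was left out, from 0.038 to 0.23 in the large and from 0.012 to 0.20 in the small subunit, and from -0.021 to 0.037 over all genes. Median centring gave -0.016 over all genes. Genes with both ACSS2NLS libraries above both EV libraries numbered 19 with median centring (24.4%, beside 15.3% of all genes) and 38 to 66 with 1 library left out, where fewer libraries must be apart. Without ACSS2NLS replicate 1 they were 48.7%, beside 43.4% of all genes, and without ACSS2NLS replicate 2 they were 84.6%, beside 33.9%. Without EV replicate 1 or 2 they were 52.6% and 53.8%, beside 30.9% and 35.4%. Those below numbered 2 with median centring, 2 with quantile normalization, 0 at a mean of at least 5 FPKM and 3 to 26 with 1 library left out, the most without ACSS2NLS replicate 1 (33.3%, beside 31.6% of all genes). The pseudocount, dropping the filter and the block leave these counts as they are, so they have no value of their own there.

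Signs turned for 14 named genes. With median centring Mrpl33 was at -0.015. Leaving out 1 library gave -0.090 to 0.032 for Mrpl10, -0.025 to 0.14 for Mrpl12, -0.14 to 0.29 for Mrpl18, -0.030 to 0.19 for Mrpl20, -0.26 to 0.29 for Mrpl33, -0.13 to 0.42 for Mrpl54, -0.18 to 0.25 for Mrpl58, -0.19 to 0.40 for Mrps16, -0.013 to 0.14 for Mrps18a, -0.14 to 0.37 for Mrps18c, -0.13 to 0.44 for Mrps21, -0.22 to 0.034 for Mrps27, -0.25 to 0.062 for Mrps34 and -0.0042 to 0.20 for Mrps36; 12 of these turned without ACSS2NLS replicate 1. Without losing their sign, values moved by over 1.5 times for Mrpl28 (-0.21 to -0.017), Mrps30 (-0.18 to -0.011), Mrpl32 (0.14 to 0.47), Mrps18b (0.14 to 0.43), Mrpl11 (0.081 to 0.21) and Mrps12 (0.080 to 0.17). Depth limits Mrpl23 most, at 34 to 49 tags.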

Other observations

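Among the mitochondrial aminoacyl-tRNA synthetases, Lars2, the leucyl-tRNA synthetase gene, stood far above the rest of its list, whose median level was 5.35 FPKM. It had 1078 and 503 FPKM in the ACSS2NLS libraries, against 486 and 553 FPKM in the EV libraries. Whether all tags counted for Lars2 came from its own message was not tested. ACSS2NLS replicate 1 was the high library and the other 3 lay close together. Lars2 has 3858 bases of exon, and what part length has in its values was not tested. Lars2 was picked with its values in view.

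The proteasome gene Psma2, the head-to-head neighbour of Mrpl32, had 112 and 95.7 FPKM in the ACSS2NLS libraries, against 105 and 103 FPKM in the EV libraries, so the groups overlapped for it and not for Mrpl32. Tcp1, the chaperonin gene beside Mrpl18, had 67.6 and 72.1 FPKM in ACSS2NLS, against 68.4 and 70.5 FPKM in EV, while Mrpl18 had 78.1 and 57.4 FPKM in ACSS2NLS, against 72.3 and 55.7 FPKM in EV. In that pair the replicate difference of Mrpl18 had no counterpart in its neighbour. Both neighbours were chosen after their values were seen.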
